A study of Mus musculus with 3 samples.

Results

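Genes of the 3 families of motor proteins were examined for chromatin bound by the nucleoporin Seh1 in mouse neural stem cells. Members were the genes named in a peak list whose symbol began with Kif and a digit (kinesins), with Dnah, Dync or Dynl (dyneins), or with Myo or Myh and a digit (myosins). The rule gave 56 of the 9838 gene names in the lists: 21 with kinesin, 15 with dynein and 20 with myosin names. Seh1 peaks were given to 51 of these and IgG peaks to 17. The rule also caught Kif1bp, whose product binds kinesins and is no motor, and the pseudogene Kif4-ps. The remaining 54 are protein-coding, and the RefSeq table holds 108 protein-coding genes whose symbols meet the same rule, so 54 of those 108 had no peak in either list by this assignment.

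The cells were wild-type primary neural stem cells cultured from the cortex of newborn mice, on plates coated with laminin and poly-L-ornithine and in growth medium with EGF and bFGF, and they were taken while proliferating. Chromatin was fixed with formaldehyde, sonicated and, by the titles, immunoprecipitated for Seh1 or with IgG, and there was also an input library, for which no peak list was analysed here. Each of the 3 groups had 1 library, and the labels name neither the number of mice nor of cultures. There is therefore no replicate error and no test of Seh1 against IgG. Peak lists measure no expression, so the labelled cell type could not be checked against its markers. The Seh1 list had 16113 peaks and the IgG list 5314. All deposited scores were 0, so neither peak height nor read depth is known, and the part that depth plays in the lengths of the lists was not tested. The 95% intervals below are exact (binomial for shares, Poisson for numbers of peaks) and cover counting error only.

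Motor proteins turn the energy of ATP into movement along the cytoskeleton. Most kinesins walk towards the plus ends of microtubules and carry vesicles, organelles and chromosomes. Cytoplasmic dynein moves towards the minus ends, and axonemal dyneins bend cilia and flagella. Myosins pull on actin filaments and drive muscle contraction, cytokinesis and the transport of vesicles. In neural stem cells, dynein and several kinesins are known for moving the nucleus up and down the elongated cell during the cell cycle and for building the mitotic spindle.

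A gene was given a peak where its transcription start site (TSS) was the nearest to the peak centre in the authors' annotation, at any distance. By this assignment 113 Seh1 peaks and 23 IgG peaks went to motor genes. Of the 108 protein-coding motor genes, 50 (46.3%, interval 36.7 to 56.2%) were given a Seh1 peak, against 31.9% of all 21779 protein-coding genes. IgG peaks were given to 16 (14.8%, 8.71 to 22.9%), against 11.3% of all. Peaks of both lists were given to 12 motor genes (11.1%), against 6.42% of all genes. The 12 were Dnah5, Dnah7c, Dync1i1, Dync1i2, Dynlt1a, Kif16b, Kif26b, Kif2b, Myh15, Myh2, Myo1d and Myo3a. IgG peaks alone were given to Dnah12, Dynlt1c, Kif18a, Kif21a and Kif4-ps. The 12 genes with both made up 23.5% of the members with a Seh1 peak and 70.6% of those with an IgG peak. Over all protein-coding genes, 1399 were given both, out of 6938 given a Seh1 peak and 2471 given an IgG peak. No Seh1 peak of a motor gene overlapped an IgG peak (0 of 113, which allows a share of up to 2.65%), while 60 of the 16000 other Seh1 peaks (0.375%) did.

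Motor genes are long, and the share of genes given a peak was higher in longer genes. Their median length was 65.3 kb, against 17.2 kb for all protein-coding genes, and 40 of the 108 (37%) were over 100 kb long, against 11.1% of all. Within ranges of gene length the Seh1 shares of motor genes lay on both sides of the background. Among genes over 100 kb, 23 of 40 motor genes (57.5%, 40.9 to 73%) were given a Seh1 peak, against 62.1% of all such genes. From 20 to 100 kb the values were 22 of 52 (42.3%, 28.7 to 56.8%) and 37.9%. Under 20 kb they were 5 of 16 (31.2%, 11 to 58.7%) and 21.8%. For IgG the motor shares were 25%, 5.77% and 18.8% in genes over 100 kb, from 20 to 100 kb and under 20 kb, against 31.7%, 12.3% and 6.54% of all genes. Each of these 6 motor shares has an interval that includes the background of its range.

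**Figure D1:**
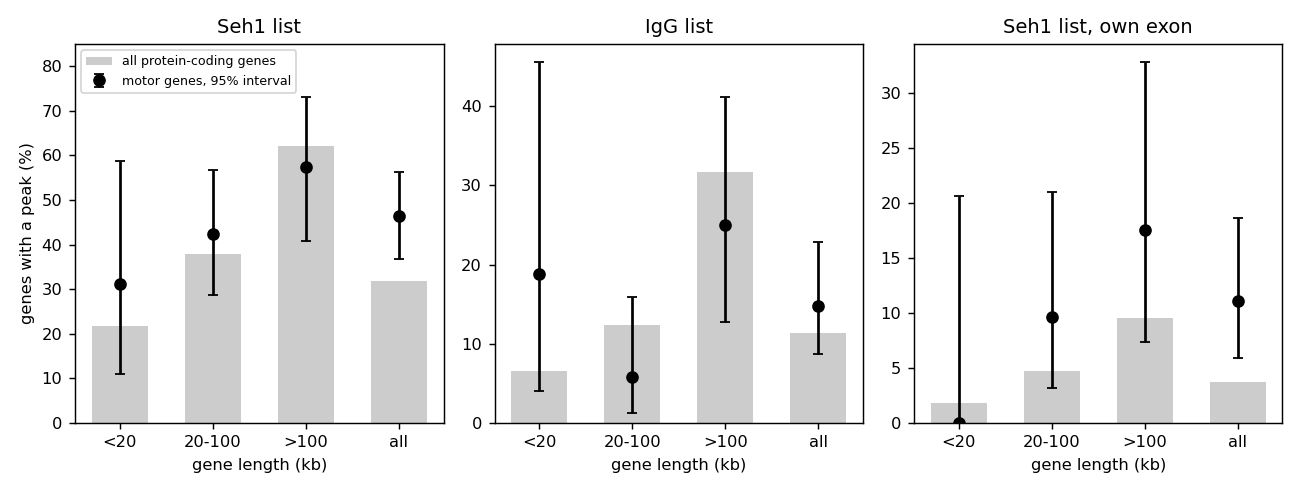
Share of genes with a peak (y axis, %) in 3 ranges of gene length and over all lengths (x axis, kb), for genes given a Seh1 peak, genes given an IgG peak and genes with a Seh1 peak in an exon of their own transcript. Grey bars are all protein-coding genes and black points the motor genes with 95% exact binomial intervals; within each range the interval includes the grey bar, whereas over all lengths the Seh1 points at 46.3% and 11.1% lie above bars of 31.9% and 3.67%.

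The nearest TSS does not say in which gene a peak lies, and this made a difference for many motor genes. Of the 113 Seh1 peaks given to motor genes, 71 lay inside the gene they were given to, 10 lay in a transcript of another gene and 32 were intergenic. Counted by position, 116 Seh1 peak centres lay inside motor genes, and 45 of these had been given to a neighbour. At least 1 Seh1 peak centre lay inside 53 of the 108 motor genes (49.1%, 39.3 to 58.9%), against 19.5% of all protein-coding genes, and at least 1 IgG centre inside 13 (12%, 6.57 to 19.7%), against 6.26%. Motor genes are longer, with a median of 65.3 kb against 17.2 kb. Shares of genes holding a peak, here and in the groups below, were not compared within ranges of gene length. Only 38 genes met both definitions for Seh1; 12 were given a peak but held none, and 15 held a peak but were given none. Those 15 were Dnah7b, Dnah9, Dnah12, Dnah14, Dync1h1, Kif1b, Kif2a, Kif5c, Kif15, Kif20b, Kif21a, Kif24, Myh8, Myo5a and Myo7b.

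Per length of gene, Seh1 peaks were denser in motor genes than in the average gene. Motor genes held 9.68 Seh1 peak centres per Mb (interval 8 to 11.6), against 6.9 per Mb over all protein-coding genes. In the range from 20 to 100 kb the densities were 13.8 (9.63 to 19.2) and 7.94 per Mb, and over 100 kb they were 8.75 (6.95 to 10.9) and 6.19 per Mb. The 16 motor genes under 20 kb held no peak of either list in 0.184 Mb of sequence. The interval, 0 to 20.1 per Mb, includes the 8.12 Seh1 and 1.23 IgG peaks per Mb of all genes in that range. IgG peaks stood at 1.25 per Mb (0.701 to 2.07) in motor genes and 1.9 per Mb in all genes. By family, Seh1 density was 12.1 per Mb in kinesin (8.51 to 16.7), 11.3 in myosin (8.43 to 14.8) and 6.26 in dynein genes (4.13 to 9.11), while the 3 IgG densities ran from 1.16 to 1.31 per Mb. Peaks of 1 gene are not independent of each other, so these intervals are too narrow.

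**Figure D2:**
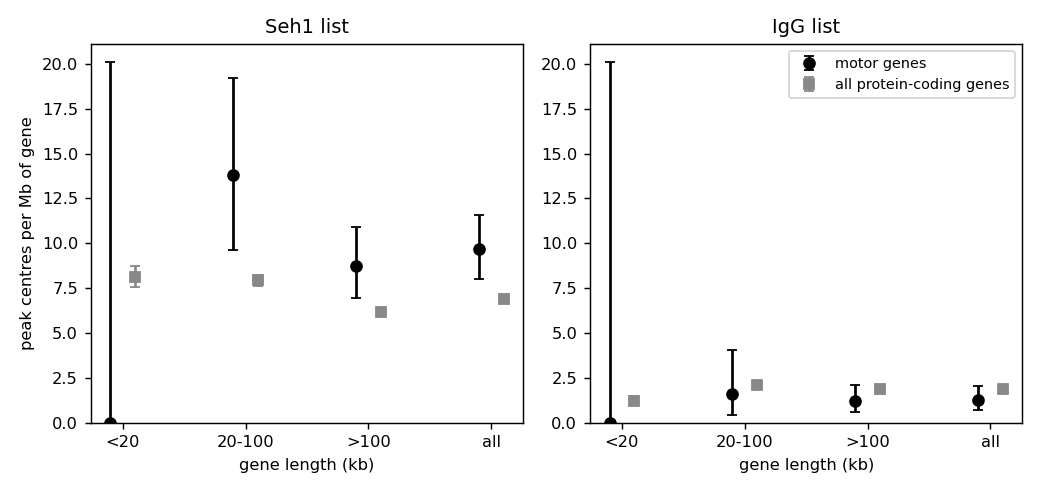
Peak centres per Mb of gene (y axis) in the Seh1 and IgG lists by gene length (x axis, kb), for motor genes (black circles) and all protein-coding genes (grey squares), with 95% exact Poisson intervals. Seh1 values of motor genes exceed those of all genes from 20 kb upwards (13.8 against 7.94 and 8.75 against 6.19 per Mb), and IgG values of motor genes do not.

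Most peaks of motor genes lay far from any TSS. The median distance was 45.6 kb (range 0.233 to 996 kb) for Seh1 and 125 kb (6.67 to 858 kb) for IgG, against 37.7 and 57.4 kb for the other peaks of each list. Introns held 71 of the 113 Seh1 peaks (62.8%, 53.2 to 71.7%; 36.6% of other Seh1 peaks), intergenic sequence 28.3% (20.2 to 37.6%; 54.5%) and exons 8.85% (4.33 to 15.7%; 5.35%). Of those intron peaks, 15 (21.1%, 12.3 to 32.4%) were in a first intron, against 27.2% of other Seh1 intron peaks. None of the 113 was in the classes for promoters (0.887% of other Seh1 peaks), transcription termination sites (1.04%), 5′ UTRs (0.1%), 3′ UTRs (0.925%) or non-coding exons (0.506%). For each class 0 of 113 allows a share of up to 2.65%, which is above these background shares. A Seh1 peak within 1 kb of the TSS was given to 2 motor genes (1.85%; 1.11% of all protein-coding genes), Myh14 and Myh3, and one within 10 kb to 16 (14.8%, 8.71 to 22.9%; 9.68% of all). Motor peaks had nearly the widths of the rest, with a median of 261 bp against 266 bp, and 35.4% (26.6 to 45%) had the minimum width of 243 bp, against 27.1% of other Seh1 peaks.

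Members in the Seh1 list were given a median of 2 Seh1 peaks, against 1 for the 6938 protein-coding genes given any. Of the 51 members, 20 were given 1 peak (39.2%, 25.8 to 53.9%; 58.8% of those 6938 genes), 17 were given 2 and 14 were given 3 or more (27.5%, 15.9 to 41.7%; 19.1%). Peak number was not compared within ranges of gene length. The 5 with the most were Dynlrb2 with 7, Kif2b and Kif26b with 6 each, and Dync1i1 and Kif6 with 5 each. All peaks of Dynlrb2 and Kif2b were intergenic, whereas all 5 of Kif6 and 5 of the 6 of Kif26b lay in the gene's own introns.

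**Figure D3:**
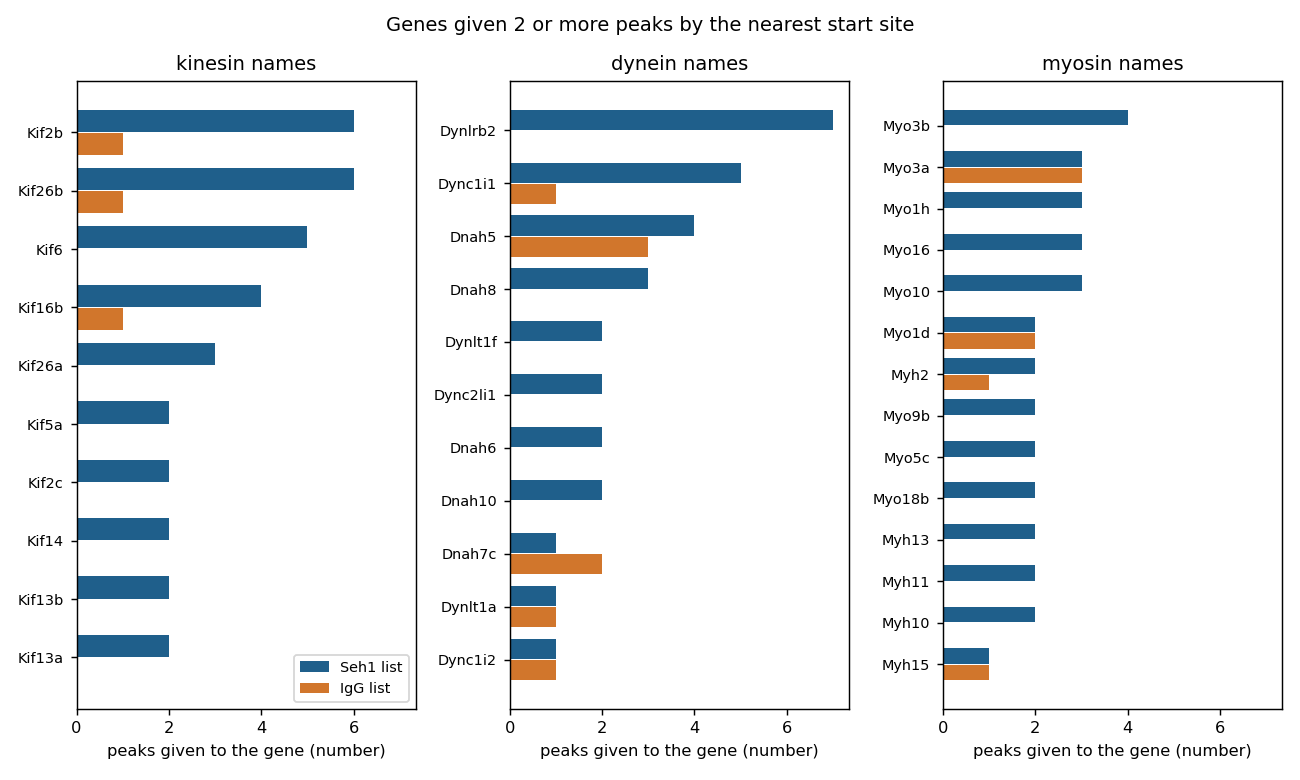
Number of peaks given to each member with 2 or more peaks over both lists (x axis) in the Seh1 list (blue) and the IgG list (orange), by the family that the gene name shows. Dynlrb2 leads with 7 Seh1 and 0 IgG peaks, and Myo3a and Dnah5 have the most IgG peaks, 3 each.

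Of 11 kinesins of mitosis, 2 were given Seh1 peaks (18.2%, 2.28 to 51.8%; 31.9% of all protein-coding genes), Kif14 and Kif2c. By position 4 of the 11 held one (36.4%, 10.9 to 69.2%; 19.5% of all genes), so the 2 definitions lay on opposite sides of the background, within wide intervals. An IgG peak was given to 1, Kif18a, which encodes a kinesin that aligns chromosomes. Kif14, which acts in cytokinesis, had 2 wide Seh1 peaks on chromosome 1, of 456 bp in intron 4 of 28 (136478068 to 136478523, 10.4 kb from the TSS) and of 417 bp in intron 21 (45.4 kb). The first was wider than 95.3% of all Seh1 peaks. Kif2c, a microtubule depolymerase of the centromere, had a peak of 421 bp in intron 7 of 19 (6.67 kb from the TSS) and one in a B1 repeat 24.5 kb upstream. Kif2a and Kif2b, counted with the other kinesins below, are not among the 11. Kif2b was given 6 Seh1 peaks and Kif2a held 1. Kif15 and Kif20b held 1 intronic Seh1 peak each that was given to a neighbour. No Seh1 peak was given to or lay in Kif11, the motor that drives the spindle poles apart, Kif23, a subunit of centralspindlin, or Kif4, Kif18b, Kif20a and Kif22.

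Transport kinesins were given Seh1 peaks in 7 of 15 cases (46.7%, 21.3 to 73.4%; 31.9% of all protein-coding genes), and 10 of the 15 held one (66.7%, 38.4 to 88.2%; 19.5%). Kif5a, a neuronal heavy chain of kinesin-1, had 2 in its first intron, 2.83 and 10.2 kb from the TSS, and the nearer one was in a GA-rich stretch. Kif1a, which carries precursors of synaptic vesicles, had 1 of 357 bp in intron 16 of 48. Kif3b, a subunit of the kinesin-2 that serves cilia, had 1 in its first intron (4.82 kb), as had Kif17 (5.78 kb), another kinesin of cilia and dendrites. Kif13a and Kif13b, motors of endosomes and membrane proteins, had 2 intronic peaks each, 38.5 and 98.7 kb and 4.71 and 49.4 kb from the TSS. A further Seh1 peak in intron 9 of Kif13a was given to Nup153. All of these lay downstream of the start site of the gene whose intron held them.

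Kif16b, which moves early endosomes, was given 4 Seh1 peaks and 1 IgG peak. Its Seh1 peak of 500 bp in the first intron (14.5 kb from the TSS) was wider than 97.3% of all Seh1 peaks. A second lay in intron 12 of 26 (84.4 kb). The other 2, at 558 and 996 kb, and the IgG peak at 858 kb were all in introns of Macrod2, a neighbouring gene, and lay in repeats. Kif21a, a kinesin that dampens microtubule growth, was given 1 IgG peak in its first intron and no Seh1 peak, but exon 32 of 33 of the gene held a Seh1 peak of 253 bp. It was the only Seh1 peak of the exon class, which leaves out UTRs, in a kinesin gene.

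Of the 12 other kinesins, 8 were given Seh1 peaks (66.7%, 34.9 to 90.1%; 31.9% of all protein-coding genes), and 6 held one (50%, 21.1 to 78.9%; 19.5%). Kif26b, an atypical kinesin needed for kidney development, held 5 intronic peaks 182 to 307 kb from the TSS, all in introns 3 to 5 of 14, and a sixth 487 kb away was in Smyd3. An IgG peak in intron 4 lay 8.89 kb from the nearest of them. Kif6 held 5 intronic Seh1 peaks from 39.7 to 226 kb and the nearest IgG peak was 1200 kb away. A peak in its last exon, classed as 3′ UTR, was given to Rftn1. Kif27, a relative of the Hedgehog regulator Kif7, had a peak of 464 bp in its first intron (14.2 kb), and an IgG peak of 352 bp lay in its exon 8 of 15. Kif9, a kinesin of cilia and flagella, was given 1 Seh1 peak in intron 4 of 20 (12.8 kb). Another of 310 bp in its intron 11 was given to Setd2.

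Peaks of the remaining kinesins lay outside the genes. Kif26a was given 3 intergenic peaks 51.4 to 119 kb downstream and Kif12 1 peak 14.3 kb upstream. The peak of Kif19a, a motor that shortens cilia, lay 18.8 kb upstream in an intron of Dnaic2, which itself encodes an intermediate chain of axonemal dynein. Kif2b, a short gene of 2.27 kb, was given 6 intergenic Seh1 peaks 96.4 to 623 kb upstream. Of these, 5 were in ERVK long terminal repeat elements (IAPEY2_LTR, RMER13A1, RLTR10-int, RMER17B and RMER13B), and its IgG peak of 615 bp was in an L1 element. The peak of Kif1bp (310 bp, 21.4 kb) was in a B4-family repeat, and the IgG peak of Kif4-ps lay 35.4 kb away in AT-rich sequence.

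**Figure D4:**
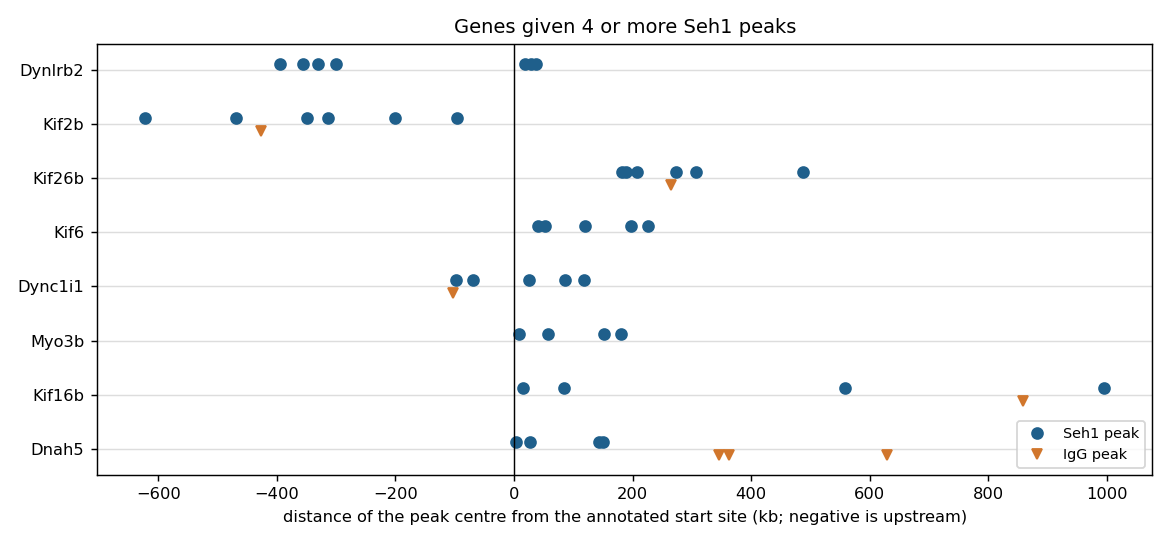
Distance of each peak centre from the annotated TSS (x axis, kb, negative upstream) for the 8 genes given 4 or more Seh1 peaks, with Seh1 peaks as circles and IgG peaks as triangles. The peaks of Kif2b all lie 96.4 kb or more upstream, those of Kif6 and Kif26b all lie downstream, and the IgG peaks of Dnah5, from 346 kb, lie beyond its 4 Seh1 peaks, which end at 150 kb.

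Axonemal dynein heavy chains, the force-producing subunits of ciliary dynein arms, were given Seh1 peaks in 7 of 15 genes (46.7%, 21.3 to 73.4%). The share was 31.9% of all protein-coding genes and 62.1% of those over 100 kb, and the median length of these 15 was 238 kb. By position, 10 of the 15 held a Seh1 peak (66.7%, 38.4 to 88.2%; 19.5% of all protein-coding genes). Dnah5, an outer-arm heavy chain, had 4 Seh1 peaks inside the gene on chromosome 15. One of 243 bp was in intron 1 (28207586 to 28207828, 3.94 kb from the TSS). One of 248 bp was in exon 5 of 79 (28230385 to 28230632), one of 288 bp in exon 45 (28346726 to 28347013, 143 kb) and one in an L1 element of intron 47 (150 kb). Its 3 IgG peaks were intergenic, 346 to 629 kb from the TSS, so the peaks of the lists were at least 196 kb apart. Dnah10, an inner-arm heavy chain, had a peak of 304 bp in exon 6 of 79 on chromosome 5 (124732170 to 124732473, 7.24 kb from the TSS) and 1 in intron 10.

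Dnah8, a heavy chain of sperm flagella, had the widest Seh1 peak of any motor gene, 530 bp in intron 34 of 92 (chromosome 17, 30717896 to 30718425, 91.2 kb from the TSS), wider than 98% of all Seh1 peaks. Its other 2 were in MaLR-family long terminal repeats. Dnah6 was given 2 Seh1 peaks 363 bp apart in SINE repeats of introns 10 and 11, and held another in intron 65 that was given to Tmsb10. Dnah1 had 1 in its first intron (2.31 kb). Dnah7a had 1 in an L1 element of intron 8. Dnah7c was given 1 Seh1 and 2 IgG peaks, of which the Seh1 and 1 IgG peak lay 41.1 kb apart in Dnah7b. Dnah7a, Dnah7b and Dnah7c are close copies, and the sources used here do not say how multiply mapped reads were treated, so these 3 are uncertain. Dnah12 was given 1 IgG peak (intron 18 of 74) and held 1 Seh1 peak given to Asb14. Dnah14, given none, held 4 Seh1 peaks by RefSeq bounds that the authors' annotation classed as intergenic.

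Of the 7 genes for the heavy, intermediate and light intermediate chains of cytoplasmic dynein, 3 were given Seh1 peaks (42.9%, 9.9 to 81.6%; 31.9% of all protein-coding genes). By position, 2 of the 7 held one (28.6%, 3.67 to 71%; 19.5% of all protein-coding genes). Dync1i1, the intermediate chain enriched in neurons, was given 3 intronic peaks at 25.8, 86.2 and 118 kb. Another Seh1 peak in its intron 5 of 15 was given to 1700019G24Rik. Dync1i1 was also given 2 intergenic peaks 69.3 and 97.3 kb upstream, the latter 5.04 kb from an IgG peak. That was the closest approach of the lists at any motor gene given both. Dync1i2, the widely expressed intermediate chain, had an IgG peak in its intron 5 of 15, while its Seh1 peak (292 bp, 63.3 kb) lay in exon 18 of 18 of Slc25a12. Both peaks of Dync2li1, a light intermediate chain of the dynein that works in cilia, were in introns of Plekhh2. Dync1h1, the heavy chain of cytoplasmic dynein, was given none and held 1 Seh1 peak of 282 bp in intron 54 of 76. Neither list had a peak given to or inside Dync1li1, Dync1li2 or Dync2h1.

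Seh1 peaks were given to 3 of 9 dynein light chain genes (33.3%, 7.49 to 70.1%; 31.9% of all protein-coding genes). By RefSeq bounds none of the 9 held a Seh1 peak (interval 0 to 33.6%; 19.5% of all) or an IgG peak (6.26% of all). Their median length was 10.9 kb, against 17.2 kb for all protein-coding genes. Dynlrb2, a light chain of the roadblock type found in ciliated tissue, was given 7 intergenic Seh1 peaks on chromosome 8, in a group 301 to 394 kb upstream and another 17.6 to 37 kb downstream. None of the 7 was in a repeat, their widths were 243 to 385 bp, and the nearest IgG peak was 491 kb away. Dynlt1a was given 1 Seh1 and 1 IgG peak 16.1 kb apart, Dynlt1f was given 2 Seh1 peaks and Dynlt1c 1 IgG peak. The Dynlt1 genes are near-identical neighbours, and for the peaks of Dynlt1f and Dynlt1c the annotated TSS was outside the RefSeq bounds of the gene named, so the copy is uncertain. Dynll1, Dynll2, Dynlrb1, Dynlt1b and Dynlt3 were given none.

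Muscle myosin heavy chains, the motors of the thick filament, were given Seh1 peaks in 6 of 11 genes (54.5%, 23.4 to 83.3%; 31.9% of all protein-coding genes), and 5 held one (45.5%, 16.7 to 76.6%; 19.5%). Skeletal genes lie side by side on chromosome 11, where Myh3, Myh2, Myh1, Myh4, Myh8 and Myh13 span 293 kb (67078273 to 67371587). This cluster held 4 Seh1 peaks and 1 IgG peak. Myh3, the embryonic heavy chain, had a Seh1 peak of 282 bp in intron 2 of 40 (67079073 to 67079354), 913 bp downstream of the TSS. Myh2, the chain of fast oxidative fibres, had a peak of 243 bp 1.58 kb upstream and one of 361 bp in exon 3 of 40 (67173046 to 67173406, 2.2 kb downstream), which was wider than 85.5% of all Seh1 peaks. The IgG peak of 476 bp was in intron 19 of Myh2, 11.8 kb from the exon peak. The fourth Seh1 peak lay in exon 37 of 40 of Myh8, the perinatal chain (272 bp, 67305821 to 67306092), and was given to Myh13. Myh1 and Myh4 had none.

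The promoters of Myh3 and Myh2 are shown because, of the RefSeq promoter windows matched to motor genes, theirs came closest to a Seh1 peak. Motor genes without a matched window were not ranked. RefSeq windows on GRCm38.p6 (250 bases before to 50 after a TSS) were matched for 89 of the 108 genes and gave 102 windows. Seh1 peaks overlapped 0 of the 102 (which allows up to 2.94%), against 197 of all 32851 windows (0.6%), and IgG peaks overlapped 0 against 17 (0.0517%). The nearest Seh1 peak lay 724 bp from the Myh3 window and 1207 bp from the Myh2 window, so the bases printed are not those of a peak. The 250 bases before each TSS are given 5′ to 3′ on the plus strand, chr11:67078050-67078299 for Myh3 and chr11:67170777-67171026 for Myh2, with a TATA box (TATAAA on either strand) in capitals.
Myh3: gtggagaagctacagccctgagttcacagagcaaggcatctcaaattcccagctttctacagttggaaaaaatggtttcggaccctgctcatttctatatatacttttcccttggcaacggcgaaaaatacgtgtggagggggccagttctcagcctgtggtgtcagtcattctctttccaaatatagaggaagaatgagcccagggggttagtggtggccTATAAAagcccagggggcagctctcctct
Myh2: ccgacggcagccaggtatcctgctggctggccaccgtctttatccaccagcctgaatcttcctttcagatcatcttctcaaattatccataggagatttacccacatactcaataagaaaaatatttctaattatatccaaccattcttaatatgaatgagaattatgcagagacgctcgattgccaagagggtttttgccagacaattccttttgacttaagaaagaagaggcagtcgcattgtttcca

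In Myh3 the TATA box began 29 bases before the TSS, and the Myh2 stretch held none. Also searched on both strands was the CHR element of cell cycle genes, TTTGAA. A further search was for the CCAAT box, by the letters of its name. The GC box was searched as GGGCGG. None of these 3 was in either stretch. Among the 250-base stretches of motor genes the TATA box was in 13.7%, the CHR element in 13.7%, the CCAAT box in 34.3% and the GC box in 52%, and among all stretches of that length in 12.4%, 16%, 33.8% and 32.7%. No motif contains another. A match describes the sequence and is no evidence of a bound factor.

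Outside the cluster, Myh6, a cardiac heavy chain, had a Seh1 peak of 270 bp in exon 11 of 39 (chromosome 14, 54961046 to 54961315, 5.43 kb from the TSS). Myh11, the smooth muscle chain, was given 2 minimum-width peaks 352 bp apart in intron 3 of 41 and held another of 337 bp that was given to Nde1, a dynein regulator. Myh15 had an intergenic Seh1 peak in an ERVK provirus 30.3 kb upstream and an IgG peak in intron 16 of 40. Myh13 was also given a peak in an ERVK repeat 50.3 kb downstream. Of the non-muscle heavy chains, which drive cytokinesis and cell shape, Myh14 had a Seh1 peak of 314 bp in exon 2 of 42 (chromosome 7, 44665114 to 44665427). Its centre was 233 bp from the TSS of an alternative transcript, the smallest distance of any motor gene peak, and 5.37 kb separated it from the RefSeq promoter window. Myh10 had 2 intronic peaks (337 bp at 40.4 kb and 251 bp at 70.1 kb), and Myh9 had none.

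Unconventional myosins, which carry cargo or tether membranes to actin, were given Seh1 peaks in 12 of 25 genes (48%, 27.8 to 68.7%). The share was 31.9% of all protein-coding genes and 62.1% of those over 100 kb, and the median length of these 25 was 103 kb. By position, 14 of the 25 held a Seh1 peak (56%, 34.9 to 75.6%; 19.5% of all protein-coding genes), with 42 Seh1 peak centres in all. Myo3b, a motor of sensory hair cell protrusions, was given 4 intronic peaks from 8.94 to 181 kb, and its paralogue Myo3a 3 Seh1 and 3 IgG peaks. At Myo3a the Seh1 peaks were 36 and 246 kb upstream and 86.8 kb downstream, and the IgG peaks, 2 of them in L1Md elements, were 6.67 and 149 kb upstream and 134 kb downstream. Myo16, a myosin of the nervous system, was given 3 intronic peaks between 182 and 336 kb, and another in its intron 28 of 34 was given to B930025P03Rik. Myo10, which works in filopodia, had 1 intergenic and 2 intronic peaks, and Myo1h had 3 intronic peaks.

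Myo9b was given 2 Seh1 peaks in intron 2 of 39, and 3 more peaks of 282 to 344 bp in its introns 11 to 15 were given to Use1. Myo9a, its paralogue, had 1 in an L1 element of intron 6. Myo5b, which moves recycling endosomes, was given 1 peak (intron 1, 20.4 kb), and Myo5c, another class V motor, had 1 in its first intron (2.58 kb). Myo18b, a myosin needed in muscle, was given 2 peaks 469 bp apart 5.93 and 6.68 kb upstream, the farther one in an ERVK repeat. It also held Seh1 peaks in introns 20 and 33 of 43 that were given to 1700095B10Rik. Myo1d, a class I motor involved in left-right asymmetry, was given 2 Seh1 and 2 IgG peaks. By position it held 8 Seh1 peak centres, the most of any motor gene, and 6 of these had gone to the non-coding gene C030013C21Rik inside it. Among them was a peak of 436 bp at the start site of that gene.

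Peaks of the annotation's exon class were counted by the transcript it names. This class leaves out UTRs, and so the peak in the last exon of Kif6. Of the 108 motor genes, 12 held a Seh1 peak of the exon class (11.1%, 5.87 to 18.6%), against 3.67% of all protein-coding genes. Myosins accounted for 9 of 39 (23.1%, 11.1 to 39.3%), among them Myh2, Myh6, Myh8, Myh14, Myo1d, Myo5a, Myo5b and Myo7b. Dyneins accounted for 2 of 31 (6.45%, 0.791 to 21.4%) and kinesins for 1 of 38 (2.63%, 0.0666 to 13.8%). With length taken into account the motor shares were 7 of 40 genes over 100 kb (17.5%, 7.34 to 32.8%; 9.52% of all such genes), 5 of 52 from 20 to 100 kb (9.62%, 3.2 to 21%; 4.73%) and 0 of 16 under 20 kb (1.78%). These intervals include the background. In the IgG list 1 motor gene, Kif27, had such a peak (0.926%; 0.248% of all).

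The 13 Seh1 peaks of the exon class in these 12 genes were 243 to 361 bp wide (median 279 bp), and 1 had the minimum width. Besides those described above they included exon 15 of 22 of Myo1d (254 bp), exon 21 of 41 of Myo5a, the vesicle motor of neurons and pigment cells (243 bp, chromosome 9, 75171574 to 75171816), exon 7 of 39 of Myo5b (279 bp) and exon 46 of 47 of Myo7b, a motor of intestinal microvilli (318 bp). The peak in Myo5a had been given to Myo5c, that in Myo7b to Gpr17 and that in Myo5b to a non-coding gene. The transcripts named had 22 to 79 exons. The exonic length of all genes was not used here, so the part that many exons play in these counts was not tested.

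The repeat shares of motor gene peaks had intervals that include those of the other peaks. Of the 113 Seh1 peaks, 40 had a repeat at the centre (35.4%, 26.6 to 45%; 39.8% of other Seh1 peaks), with long terminal repeats at 14.2% (8.32 to 22%; 17%), LINE elements at 11.5% (6.27 to 18.9%; 10.6%) and SINE elements at 6.19% (2.53 to 12.3%; 6.91%). ERVK elements were at 10 peaks, of which 5 belonged to Kif2b and 1 each to Myh13, Myh15, Myo18b, Myo3a and Myo9b. Of the 23 IgG peaks, 8 were in L1 elements (34.8%, 16.4 to 57.3%; 31.4% of other IgG peaks), at Dnah5, Dnah7c, Kif16b, Kif2b, Myo1d and Myo3a. The annotation labels repeats only for intron and intergenic peaks.

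Lists of motor partners had Seh1 shares from 16.7 to 30.8% and IgG shares from 0 to 25%. Dynactin and dynein adaptor genes were given a Seh1 peak in 8 of 26 cases (30.8%, 14.3 to 51.8%) and an IgG peak in 1 (3.85%). Bicd2, an adaptor for nuclear movement, had a peak 8.69 kb upstream and one in its intron (17.2 kb), and Dctn2 and Dctn6, subunits of dynactin, had intronic peaks at 7.32 and 6.43 kb. For kinesin partners and C-terminal kinesins the counts were 4 of 16 (25%, 7.27 to 52.4%) in each list. The 4 with a Seh1 peak included Kifbp, whose only peak is the one described above under the name Kif1bp. Klc2, a kinesin light chain, had a Seh1 peak of 250 bp in its own exon (4.28 kb from the TSS). Axonemal dynein partners had 3 of 15 (20%, 4.33 to 48.1%) with a Seh1 and 0 with an IgG peak, including Ccdc114, which docks outer dynein arms (318 bp, in an exon), and Dnali1 (7.75 kb, in an intron). Myosin light chains, kinases, binding proteins and chaperones had 4 of 24 with a Seh1 peak (16.7%, 4.74 to 37.4%) and an IgG peak in 1 of 24 (4.17%), with Seh1 peaks in an exon of Mybpc1 and an intron of Mylk. The shares of all protein-coding genes were 31.9% for Seh1 and 11.3% for IgG. No list was tested.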

How the data were processed

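Peaks of the Seh1 and IgG libraries of mouse neural stem cells were used as the authors deposited them, with 1 list per library. Per the file headers, HOMER annotatePeaks.pl was run on them against mm10. Bowtie2 and HOMER are named in the submitters' processing notes, which also list hg18 and hg38. How peaks were called, and with which settings, the sources used here do not say. Scores deposited by the authors were all 0 and served for nothing here. Positions are 1-based in mm10 and distances run from the peak centre to the TSS.

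Gene bodies came from the RefSeq table of GRCm38.p6, the assembly of mm10, from which 394 entries that start under 3 Mb (Y excepted) were dropped. There remained 21779 protein-coding genes. Genes were matched by identifier. Overlap meant at least 1 bp. Shares carry 95% Clopper-Pearson intervals, and 0 counts are limited by 3 counts. Python 3.11.15, pandas 2.3.3 and SciPy 1.17.1 were used, and placement and overlap were checked on simulated peaks. With 1 library per group no test was run. Alternatives changed the distance limit, width, gene assignment and overlap.

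The members, role groups and partner lists were chosen with earlier results of these data known. The genes described singly are those with a Seh1 peak in an exon or within 1 kb of a TSS, with peaks in both lists, with the most or the widest Seh1 peaks, or with an exon peak given to another gene. The remaining members were added after their values were seen, so that the members are accounted for; 1 result is not reported here.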

Additional observations from a re-analysis of the deposited data

How the results depend on the processing

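No paired analysis was possible because each group had 1 library, and no replicate could be left out. The 50 motor genes given a Seh1 peak became 16 with peaks within 10 kb of the TSS only, and between 41 and 53 under the other 5 alternatives. The 16 given an IgG peak became 9 within 100 kb and 2 within 10 kb, and 13 to 16 otherwise. Within 100 kb the Seh1 shares were 43.5% of motor genes and 29.1% of all protein-coding genes, and within 10 kb 14.8% and 9.68%. For IgG they were 8.33% and 8.9%, and 1.85% and 2.36%, so the motor share, above that of all genes without a limit (14.8% and 11.3%), was below it under both limits. The 12 genes with peaks of both lists became 5 within 100 kb, 7 with peaks wider than the minimum and 9 by gene body. For all protein-coding genes the number with both was not counted under these settings. Their share with a Seh1 peak fell from 31.9% to 29.1%, 26.2% and 19.5%, in that order. With an IgG peak it fell from 11.3% to 8.9%, 7.47% and 6.26%. Leaving out peaks whose TSS lay off its gene, an alternative chosen after seeing the data, gave 49 and 15 genes. By each of 3 definitions of overlap, 0 Seh1 peaks of motor genes overlapped the IgG list. The exon share of Seh1 peaks, 8.85%, was 12.3% among wider peaks and 11.2% among peak centres inside motor genes. For IgG it was 0%, 0% and 6.67% (1 of 15). Unknown read depth limits all of these counts.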

Other observations

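On chromosome 10 the first-intron peaks of Kif5a (127253051 to 127253293 and 127260375 to 127260694) are followed by a Seh1 peak in an intron of Dctn2, a dynactin subunit (127273465 to 127273708). On chromosome 16 the dynein regulator Nde1 was given a peak of 301 bp in its own intron (5.83 kb) and one of 337 bp that lies in Myh11 (55.3 kb). The kinesin-2 adaptor Kifap3 had an IgG peak 11.9 kb and a Seh1 peak 13.6 kb from its TSS, in its own introns. These genes were picked after their values were seen.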
